A study of Homo sapiens with 8 samples.

Results

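The H3K27me3 landscape of LY19Y646F, a lymphoma B-cell line with constitutive expression of EZH2-Y646F, was described from its list of enriched islands. All islands on chromosomes 1 to 22 were taken, which gave 47375 of the 105576 islands of the series. The series measured the mark by ChIP-seq in 2 lymphoma B-cell lines, of which the other, LY19WT, is labelled wild type for EZH2, and only LY19Y646F is described here. The line was untreated, was at passages 10 to 15, and carried the mutant EZH2 under a CMV promoter, which drives a transgene strongly in most cell types. Whether it is 1 clone is not given in the sources used here. The mark was read from 3 ChIP libraries of separate biological replicates, with 1 library of input, DNA taken without the antibody step. The ChIP libraries had been merged before the islands were called, so that every value below comes from 1 list and has no spread between replicates. Intervals in brackets are 95% exact intervals for read counts and cover counting error only, because reads without molecular identifiers are not independent molecules. The genes under the islands were not analysed here, since the gene table at hand is on another genome build than the islands, and loci are therefore given by their hg19 positions. The labelled cell type could likewise not be checked against its marker genes.

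H3K27me3 is the trimethylated form of lysine 27 on histone H3 and is laid down by Polycomb repressive complex 2, of which EZH2 is the catalytic subunit. The mark is found on silent developmental and lineage genes, where it can form domains far broader than a promoter. The Y646F change replaces a tyrosine of the catalytic SET domain, which raises the ability of the enzyme to add the third methyl group, and such mutants recur in B-cell lymphomas of germinal centre origin.

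The islands of LY19Y646F were many and mostly of a few kilobases. Together they covered 383.1 Mb and held 17332674 ChIP reads and 3503552 input reads. The median island measured 5.8 kb, the quartiles were 4.2 and 9.2 kb, and the 5th and 95th percentiles were 2.8 and 20.2 kb. The narrowest islands were single windows of 200 bp, of which there were 4, and the widest spanned 244.6 kb. Islands of 5 to under 10 kb were the most numerous class, with 19810 islands (41.8%) and 35.2% of the covered length. Islands of 2.5 to under 5 kb made up 33.9% of the list and 16.1% of its length, and those of 10 to under 20 kb made up 16.6% of the list and 27.7% of its length. The covered length was carried unevenly: the 11115 widest islands, each of at least 9.4 kb, were 23.5% of the list and reached 50% of the length. The widest 1% of islands, 474 islands of at least 37.4 kb, held 7.1% of it.

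**Figure D1:**
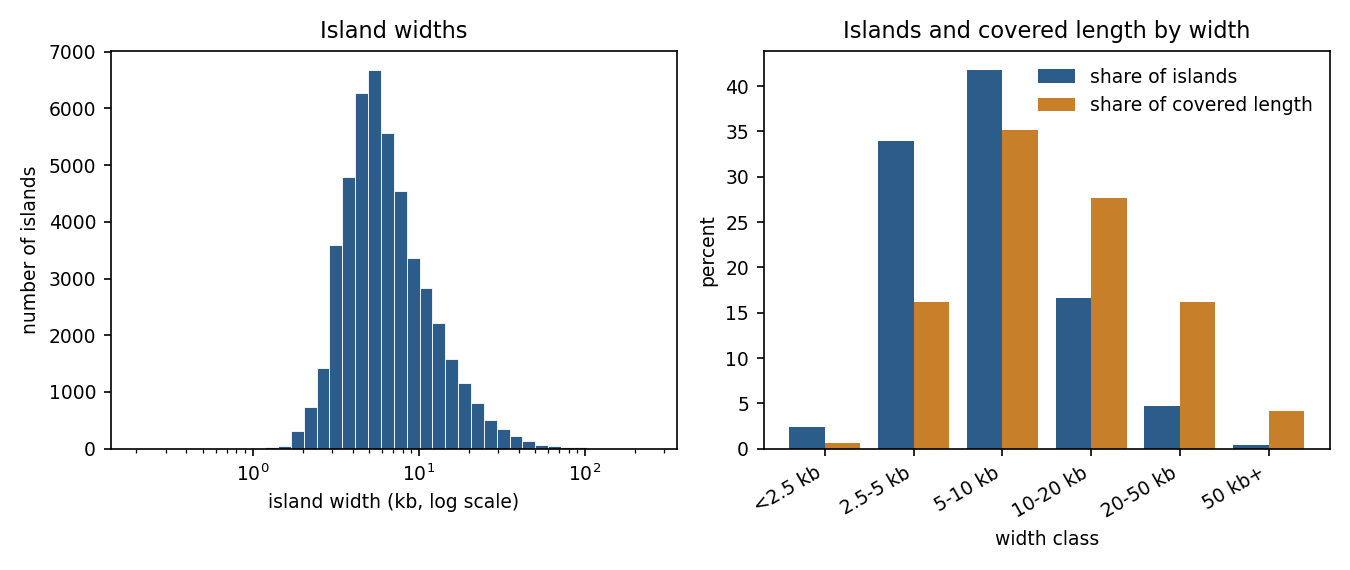
Left, the number of LY19Y646F islands by width in kb on a log scale; right, the percent of islands (blue) and of covered length (orange) in 6 width classes. Most islands lie between 2.8 and 20.2 kb. Islands of 10 to under 20 kb hold 27.7% of the length with 16.6% of the islands. The 4 islands of 200 bp are not drawn on the left.

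Total ChIP reads per kb varied less between islands than the width did, and reads in excess of input varied more than total reads. ChIP density, the number of ChIP reads per kb of an island, had a median of 41.8, with 5th and 95th percentiles of 35.4 and 51.2, a ratio of 1.45. The corresponding ratio for width was 7.21. Input density had a median of 8.42 reads per kb, with 5th and 95th percentiles of 5.71 and 11.4. The authors' fold, the ChIP count over the input count after division by a library constant of 2.62, had a median of 1.90 and quartiles of 1.65 and 2.22. Because the same ChIP and input reads decided which islands entered the list, these values describe the list and are not evidence of enrichment. The 5 islands nearest to the authors' FDR limit of 0.001 had folds of 1.19 to 1.25, and islands beyond it were not analysed here. Multiplied by the library constant, the input reads equalled 53.0% of the ChIP reads in islands, and the remaining 47.0% were reads in excess of input. Per kb, the excess had a median of 19.8 reads, with 5th and 95th percentiles of 10.7 and 30.6, a ratio of 2.87. The ratio of these percentiles was 2.07 for the fold. All of these spreads are bounded from below by the authors' limit.

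Very wide islands were denser than those of middle width. Median ChIP density was 40.5 reads per kb at 5 to under 10 kb, 43.4 at 10 to under 20 kb, 47.1 at 20 to under 50 kb and 54.1 at 50 kb or more. The 1153 islands under 2.5 kb also stood high, at 49.5. The lowest ChIP density that any listed island had was 40 under 2.5 kb and 28.2 at 5 to under 10 kb, so that the lower limit of the list itself differed with width. Input density was 8.33 to 8.68 reads per kb in every class but the widest, where it was 10.5. The median fold was highest in the narrowest class, 2.23 under 2.5 kb, and was 1.91 at 2.5 to under 5 kb and 1.84 at 5 to under 10 kb. From there it was 1.95 at 10 to under 20 kb, 2.04 at 20 to under 50 kb and 1.96 at 50 kb or more. Among islands whose input density lay within 15% of the list median, the median fold was 2.25 over 455 islands under 2.5 kb, and it went from 1.84 over 11458 islands of 5 to under 10 kb to 2.10 over 1443 islands of 20 to under 50 kb and 2.29 over 69 islands of 50 kb or more. Across all 47375 islands, width and ChIP density had a Spearman correlation of 0.0895, with high densities at both ends of the range of widths.

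**Figure D2:**
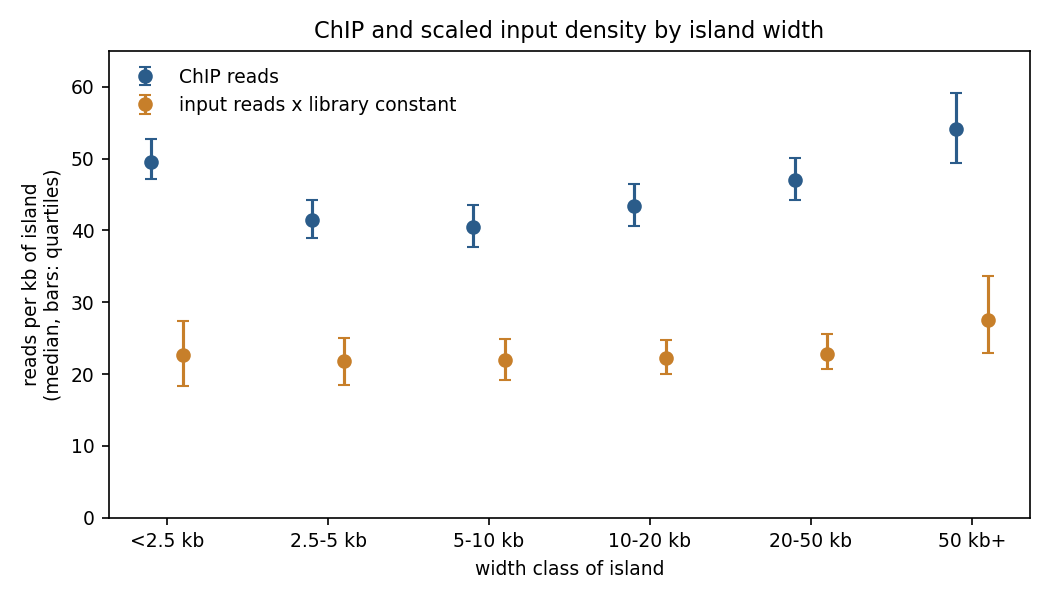
ChIP reads per kb (blue) and input reads per kb times the library constant of 2.62 (orange) in 6 width classes of LY19Y646F islands; points are medians over islands and bars are quartiles. ChIP density is lowest at 5 to under 10 kb (40.5) and highest at 50 kb or more (54.1), where scaled input is also raised.

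Islands came in groups. The median gap to the next island on the same chromosome was 5 kb, and 10794 of 47353 gaps (22.8%) were at most 1 kb, close to the smallest gap in the list, 800 bp. When islands up to 5 kb apart were joined, 23657 stretches resulted, of which 13998 still consisted of 1 island. The median stretch was 8.6 kb. There were 493 stretches longer than 100 kb, on 20 of the 22 chromosomes, and they took in 4998 islands and 19.2% of the covered length. Chromosomes 1 and 20 had 65 such stretches each, chromosome 6 had 47, chromosome 17 had 36 and chromosome 18 had 34. Chromosomes 14 and 15 had none.

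The longest stretch lay on chromosome 20 from 46302601 to 47373800. It measured 1071.2 kb, of which 29 islands covered 1028.2 kb (96.0%), with 57310 ChIP and 10146 input reads. Its islands ran from 40.7 to 65.7 ChIP reads per kb and had folds of 1.41 to 2.54, and 6 of them were among the 213 islands wider than 50 kb, which were 0.45% of the list. Relative input density, the input reads per kb divided by the list median, was 1.17 over the stretch. Chromosome 20 held 4 more of the 8 longest stretches: from 56261201 to 56811000 (549.8 kb), from 59965401 to 60495200 (529.8 kb), from 57834601 to 58280400 (445.8 kb) and from 45387801 to 45824000 (436.2 kb). The one from 59965401 had the highest fold over all its reads of these 5, 2.37, at a relative input density of 1.02. The other 3 of the 8 lay in the first 10 Mb of chromosome 6, from 3280001 to 3999000 (719 kb, 14 islands), from 695201 to 1310200 (615 kb, 13 islands) and from 6658601 to 7107000 (448.4 kb, 7 islands). These 3 had ChIP densities of 57.0 to 61.3 reads per covered kb, folds of 1.71 to 1.90 and relative input densities of 1.46 to 1.51.

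Long stretches also lay where the input was near the list median. On chromosome 1 from 203941001 to 204356200, 25 islands covered 88.6% of 415.2 kb at a fold of 2.23 and a relative input density of 0.973. On chromosome 11 from 117286601 to 117684400, 19 islands covered 93.0% of 397.8 kb at a fold of 2.4 and a relative input density of 0.946. The stretch on chromosome 3 from 193610401 to 193987200 was made of smaller islands: its 28 islands had a median width of 10.7 kb, none exceeded 33.2 kb, and together they covered 87.6% of 376.8 kb.

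The 10 widest single islands lay on 4 chromosomes, 6 of them on chromosome 6. The widest, from 6687601 to 6932200, held 14998 ChIP reads (14759 to 15240) and 2866 input reads (2762 to 2973), a ChIP density of 61.3 reads per kb and a fold of 2.0 (1.92 to 2.08). It was bounded on both sides by gaps of 0.8 kb, the smallest in the list. The island from 2575001 to 2763400 on the same chromosome spanned 188.4 kb at 62.2 ChIP reads per kb and a fold of 1.72 (1.65 to 1.79), and the one from 3556601 to 3744000 spanned 187.4 kb at 58.0 and 1.76 (1.68 to 1.84). Chromosome 6 also had islands from 761401 to 904800 (143.4 kb) and from 986401 to 1128000 (141.6 kb), with folds of 1.74 and 1.72. Its sixth, from 76467201 to 76598000, had 58.9 ChIP reads per kb but a relative input density of 2.08, and the lowest fold of the 10 islands, 1.28 (1.23 to 1.35).

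Of the widest islands on other chromosomes, those of chromosome 20 had the highest folds. The island from 47951601 to 48097400 measured 145.8 kb and held 8847 ChIP reads and 1480 input reads, a fold of 2.28 (2.16 to 2.41). The island from 55501201 to 55657200 measured 156 kb and held 9265 and 1687 reads, a fold of 2.10 (1.99 to 2.21). The chromosome 5 island from 11027801 to 11206600 spanned 178.8 kb and was the least dense of the 10, at 49.0 ChIP reads per kb and a fold of 1.5 (1.43 to 1.57). The chromosome 8 island from 12324801 to 12459600 was the most dense, at 78.6, but its relative input density was 2.17 and its fold 1.64 (1.57 to 1.72).

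All 10 widest islands had more input than the list median, at relative input densities of 1.21 to 2.17. The part that DNA abundance has in their width was not tested. A further ranking took only islands with input within 15% of the median, a rule added after these values were seen. It left out all 10 islands above, so that its widest islands were narrower by construction. The fold has the input as its divisor, so a limit on input bears on it too. The 10 widest under this rule had 93.4 to 122.8 kb and folds of 2.04 to 2.83, and they were spread over 8 chromosomes. They were led by chromosome 1 from 204209601 to 204332400, with 122.8 kb, 54.8 ChIP reads per kb and a fold of 2.63 (2.45 to 2.81), and by chromosome 10 from 73224801 to 73339400, with 114.6 kb and 2.58 (2.4 to 2.78). The chromosome 22 island from 43628401 to 43738000 had the highest fold of these 10, 2.83 (2.63 to 3.04), over 109.6 kb. The chromosome 18 island from 45549401 to 45662200 was the densest but for 1, at 58.5 ChIP reads per kb over 112.8 kb.

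None of the 10 densest islands was among the 10 widest, and chromosome 8 was the only chromosome to hold islands of both sets. Islands of at least 2 kb with input of at most 3 times the median were ranked by ChIP density. This rule leaves out islands of higher input, some of them denser, which are given below. Chromosome 18 from 76769401 to 76778200 led with 184 ChIP reads per kb (175 to 193), from 1619 ChIP and 219 input reads over 8.8 kb, and a fold of 2.82 (2.45 to 3.26). Chromosome 1 from 2575601 to 2632800 followed with 174 reads per kb (170 to 177) over 57.2 kb, from 9946 ChIP and 1214 input reads, and had the highest fold of the 10 densest, 3.13 (2.95 to 3.32). This island was both broad and dense: its ChIP density was over the 95th percentile of 51.2 in the list, and it was wider than 50 kb. Chromosome 19 from 8851201 to 8897400 held 135 reads per kb (132 to 139) over 46.2 kb at a fold of 2.17 (2.03 to 2.31). It stood alone, with no other island for 655.4 kb before and 801 kb after it.

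The remaining 7 of the densest islands had 93.3 to 128.1 ChIP reads per kb. The chromosome 12 islands from 60001 to 62400 and from 64601 to 74000 were the first of their chromosome and had folds of 1.92 (1.40 to 2.69) and 2.03 (1.76 to 2.35). The chromosome 18 island from 44542001 to 44605800 was 63.8 kb wide, with 99.9 reads per kb and a fold of 1.94 (1.82 to 2.06). The chromosome 7 island from 100539801 to 100555600 had 110 reads per kb at 2.14 (1.89 to 2.42). All 10 densest islands had relative input densities of 2.17 to 2.96, so that reads were plentiful there in the input as well. When scaled input was subtracted before ranking, 7 of the 10 remained. Among islands with input within 15% of the median, the highest ChIP densities were 61.7 to 66.2 reads per kb, in islands of 2.2 to 21.8 kb, and 4 of those 10 lay on chromosome 20 between 60217001 and 61422200. The densest of the 4, from 60217001 to 60228400, had 62.9 reads per kb (58.4 to 67.7) and a fold of 3.15 (2.52 to 3.98).

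Folds of at least 4 belonged mostly to short islands with few input reads. Across all islands, width and fold had a Spearman correlation of -0.0167. Of the 47375 islands, 266 (0.561%) had a fold of at least 4, with a median width of 3.2 kb, a median of 12 input reads and a median ChIP density of 45.8 reads per kb, close to the 41.8 of the whole list. Their median input density was 3.90 reads per kb. The highest fold by the rule, 8.14 (3.64 to 22.6), was that of chromosome 5 from 2542601 to 2545200, with 128 ChIP reads (107 to 152) and 6 input reads (2.2 to 13.1) over 2.6 kb. The other 9 had folds of 6.25 to 7.51 from 6 to 13 input reads, and the lower bounds of all 10 lay between 3.08 and 4.03, so their order was within counting error. Across islands the fold had a Spearman correlation of -0.850 with input density and of 0.379 with ChIP density, a description of values that share the same reads.

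**Figure D3:**
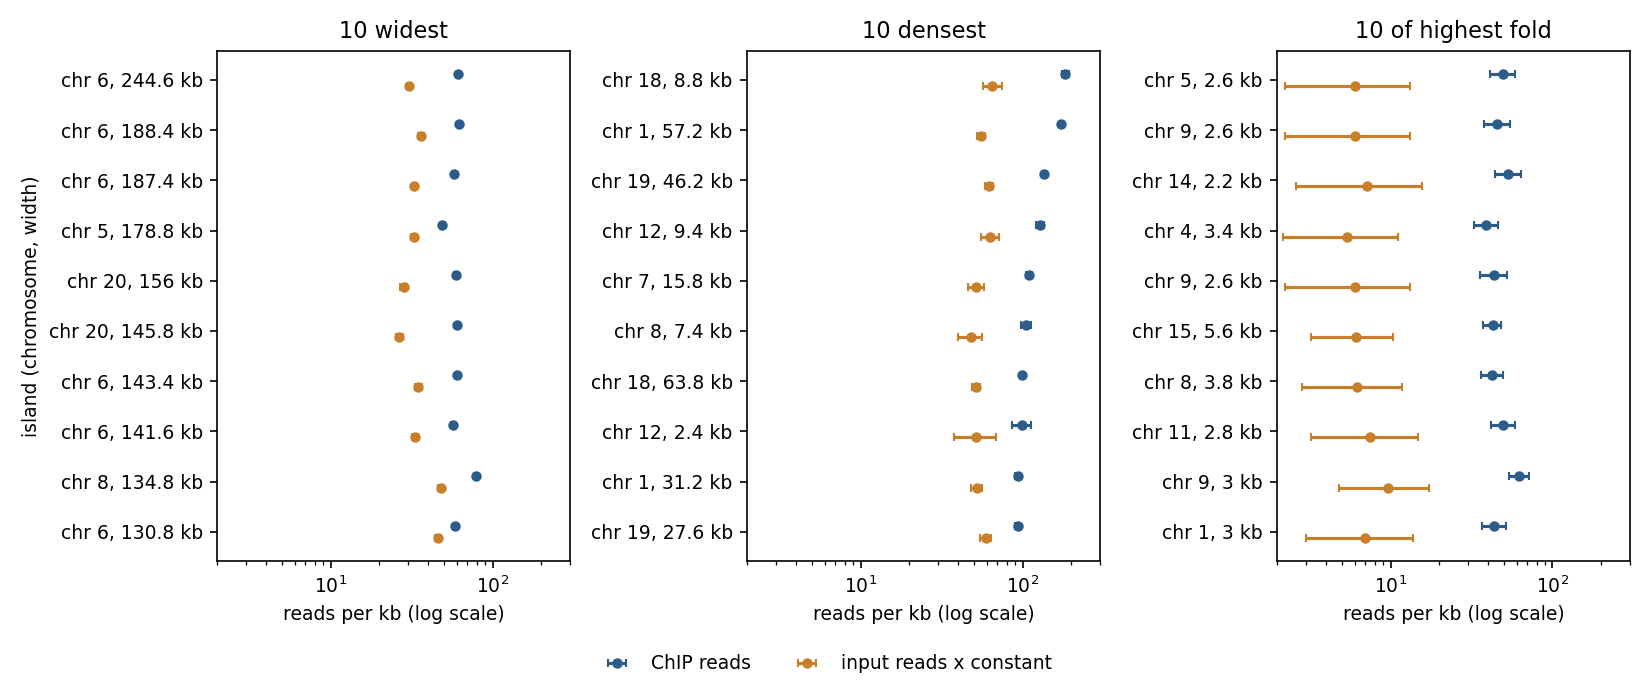
ChIP reads per kb (blue) and input reads per kb times the library constant (orange), on a log scale, for the 10 widest, the 10 densest and the 10 highest-fold islands of LY19Y646F; bars are 95% exact Poisson intervals. The densest and the highest-fold islands were taken from islands of at least 2 kb with input of at most 3 times the list median. ChIP density is between 39.1 and 62.3 in the highest-fold islands, whose scaled input is low and wide in its interval. It is at least 93.3 in the densest, whose scaled input is high.

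Islands of 10 kb or more gave folds that rest on more reads. This limit was also set after the values were seen. The highest was 4.27 (3.36 to 5.51) on chromosome 1 from 3200401 to 3215800, with 817 ChIP and 73 input reads, and the next 4.21 (3.24 to 5.55) on chromosome 1 from 2840201 to 2854000. Both lay less than 1 Mb from the dense island that starts at 2575601. The chromosome 11 island from 2024601 to 2056400 was the widest of these 10, at 31.8 kb, with 1596 ChIP and 155 input reads and a fold of 3.93 (3.33 to 4.67). On chromosome 22, the islands from 48939401 to 48955400 and from 49039201 to 49053600 reached 3.99 (3.11 to 5.18) and 3.77 (2.92 to 4.94). The 10 islands had relative input densities of 0.512 to 0.701.

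A small group of islands held very many reads in both libraries. In 49 islands on 14 chromosomes the input density exceeded 3 times the list median. They made up 0.354% of the covered length but 4.96% of the input reads and 3.56% of the ChIP reads in islands, and their median fold was 1.35. The island with the most reads lay on chromosome 2 from 92272601 to 92326200, with 214048 ChIP and 67419 input reads and a fold of 1.21 (1.20 to 1.22). The chromosome 8 islands from 43816001 to 43838800 and from 46838801 to 46862000 had folds of 1.36 and 1.35. Others had folds nearer to the list median of 1.90: the chromosome 17 island from 22244401 to 22263000, with 111083 ChIP and 24000 input reads the densest of all in both libraries, had 1.77 (1.74 to 1.79), and the chromosome 4 islands from 49313601 to 49338800 and from 49511401 to 49520600 had 1.79 and 1.76. The chromosome 2 island from 133018601 to 133035000 had 17382 ChIP and 6453 input reads, and the interval of its fold, 1.03, ran from 0.999 to 1.06. Without these 49 islands, 47.8% of the ChIP reads in islands were in excess of input, against 47.0% with them.

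Chromosomes differed in how much of their span, from their first to their last island, was covered. Chromosome 20 led with 40.1%, followed by chromosome 22 with 33.9% and chromosome 17 with 25.8%. The median chromosome stood at 13.5%, and chromosomes 4, 14 and 15 at 1.21%, 3.25% and 4.27%. On these 3 the islands were also narrower, with median widths of 5.4, 5.2 and 5.0 kb, and less dense, with medians of 39.3, 39.0 and 39.0 ChIP reads per kb. On chromosome 20 the median island was 8.0 kb wide with 44.9 reads per kb, on chromosome 22 it was 6.8 kb with 43.6, and on chromosome 17 it was 6.4 kb with 43.3. Over the 22 chromosomes, coverage had a Spearman correlation of 0.861 with median width and of 0.923 with the number of islands per Mb.

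Coverage was set beside the input in the islands of each chromosome. Input outside islands was not seen, so these values do not give the DNA abundance of a whole chromosome. Chromosomes 22 and 17, among the 3 most covered, had median relative input densities of 0.971 and 0.970. Chromosomes 20 and 18 both had a relative input density of 1.19, but chromosome 18 was covered to 13.9%. The sparse chromosomes 4, 14 and 15 had relative input densities of 0.827, 0.768 and 0.752. Over the 22 chromosomes, the Spearman correlation of input density was 0.335 with coverage and -0.947 with the median fold. Of all islands, 19487 (41.1%) had a fold of at least 2. The share was 74.5% on chromosome 14, 73.8% on chromosome 15 and 58.8% on chromosome 4, and 20.3% on chromosome 18 and 22.3% on chromosome 20. The fold has the input as its divisor, and the part that DNA abundance has in the number of islands was not tested.

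**Figure D4:**
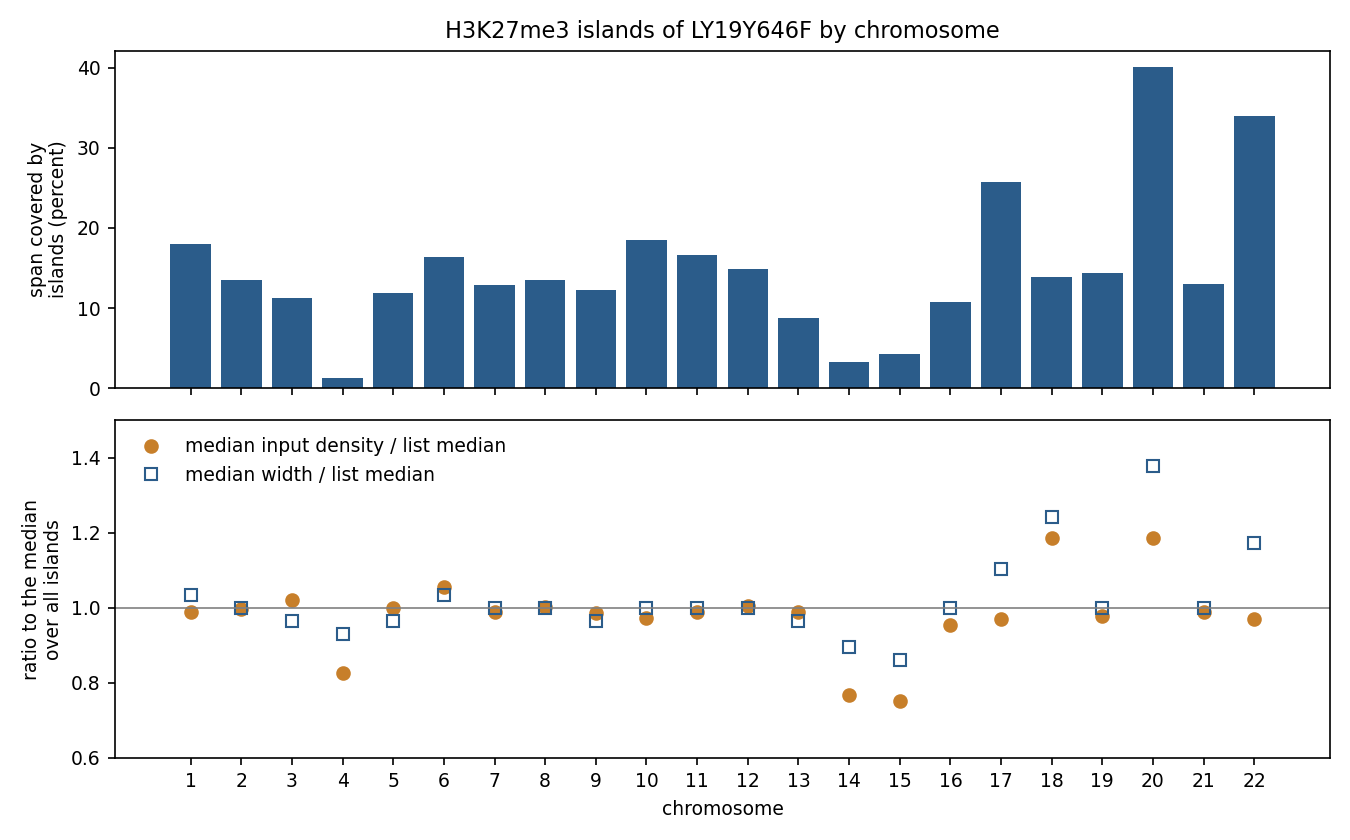
Top, the percent of each chromosome's span covered by LY19Y646F islands; bottom, the median input density (orange circles) and the median width (blue squares) of the islands of each chromosome, both divided by the median over all islands. Chromosomes 20, 22 and 17 are the most covered, and of these chromosome 20 alone has raised input in its islands (1.19).

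Wide islands were concentrated on 3 chromosomes. Chromosome 20 had 53 islands wider than 50 kb, chromosome 6 had 47 and chromosome 18 had 13. These 113 islands were 53.1% of all islands of that width, while the 3 chromosomes had 12.3% of all islands. The share of islands wider than 50 kb was 2.64% on chromosome 20, 1.64% on chromosome 6 and 1.36% on chromosome 18, against 0.45% in the list. In the same order, the median relative input densities of their islands were 1.19, 1.06 and 1.19, the highest of all chromosomes. The part that DNA abundance has in the number of wide islands was not tested. Chromosome 1 had 23 among 5405 islands (0.426%), and chromosomes 14 and 15 had none.

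Within chromosomes the islands were placed unevenly. In the first 10 Mb of chromosome 6, 183 islands covered 52.7%, and 31 of them were wider than 50 kb. Their medians were 15.4 kb, 52.2 ChIP reads per kb and a fold of 1.59, at a relative input density of 1.47. The rest of chromosome 6 was covered to 14.1%, with a median width of 6.0 kb and 16 islands wider than 50 kb. The median relative input density over all islands of this rest was 1.04, which does not describe its wide islands. Of these, 4 lay from 50 to 60 Mb, 1 from 60 to 70 Mb and 9 from 70 to 80 Mb. Over all islands of those parts, the median relative input densities were 1.503, 1.524 and 1.571, in the same order. Chromosome 18 divided at about 40 Mb. Before that position it had 64 islands (6.68% of its islands) and a coverage of 0.83%, at a relative input density of 0.802, and after it 894 islands and a coverage of 26.9%, at 1.21. On chromosome 20, coverage was 54.8% from 40 to 60 Mb, with 33 islands wider than 50 kb, and 32.4% before 40 Mb, with 18, at relative input densities of 1.20 and 1.19. Of the 359 islands of chromosome 4, 171 (47.6%) fell within its first 10 Mb, at a median fold of 2.48 and a relative input density of 0.726.

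Several well covered parts had input near or below the list median. From 70 to 80 Mb of chromosome 17, 373 islands covered 38.6% with a median fold of 2.29, at a relative input density of 0.891. From 40 to 50 Mb of chromosome 22, 386 islands covered 41.2% with a median fold of 2.25, at 0.910. The first 10 Mb of chromosome 12 was covered to 36.3% by 373 islands with a median width of 6.6 kb, at 0.981.

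In windows of 1 Mb, the landscape alternated between dense neighbourhoods and empty ones. Of 2808 windows, 715 (25.5%) held no island, the median window was covered to 6.68%, and the upper quartile was 22.9%. The empty windows include those in the gaps at centromeres given below, where how much sequence can take up reads was not analysed. The 429 most covered windows, 15.3% of all, reached 50% of the covered length. Coverage of at least 50% was seen in 104 windows (3.7%), of which 26 lay on chromosome 20, 12 on chromosome 1 and 11 each on chromosomes 6 and 18. Neighbouring windows were alike: coverage had a Pearson correlation of 0.664 over 2786 pairs of adjacent windows, 0.329 at a distance of 5 Mb and 0.247 at 10 Mb. Windows with more coverage also had denser islands, with a Spearman correlation of 0.680 between coverage and ChIP density over 1782 windows with at least 20 kb in islands. The correlation of coverage with input density over the same windows was 0.0351. Both values leave out windows with less than 20 kb in islands, and input was counted within islands only. The second value therefore does not describe the input of sparse or empty windows. The 1782 windows share libraries and neighbours and are not independent.

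The most covered windows were those of chromosome 6 from 3 to 4 Mb (82.8%) and from 6 to 7 Mb (81.5%), both at a relative input density of 1.48. Chromosome 18 followed with 76.6% from 47 to 48 Mb and 72.2% from 45 to 46 Mb, at 1.28 and 1.17. Chromosome 20 had 3 of the 10 most covered windows, from 58 to 59 Mb (72.1%), from 45 to 46 Mb (69.6%) and from 56 to 57 Mb (69.0%). The others had input below the list median: chromosome 22 from 37 to 38 Mb was covered to 68.9%, chromosome 12 from 52 to 53 Mb to 68.4% and chromosome 17 from 77 to 78 Mb to 68.2%, at 0.918, 0.973 and 0.818. The window on chromosome 12 was covered by many islands of ordinary density, with 70 island starts and 45.7 ChIP reads per kb, whereas the one on chromosome 6 from 3 to 4 Mb had 20 island starts and 62.0 reads per kb.

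**Figure D5:**
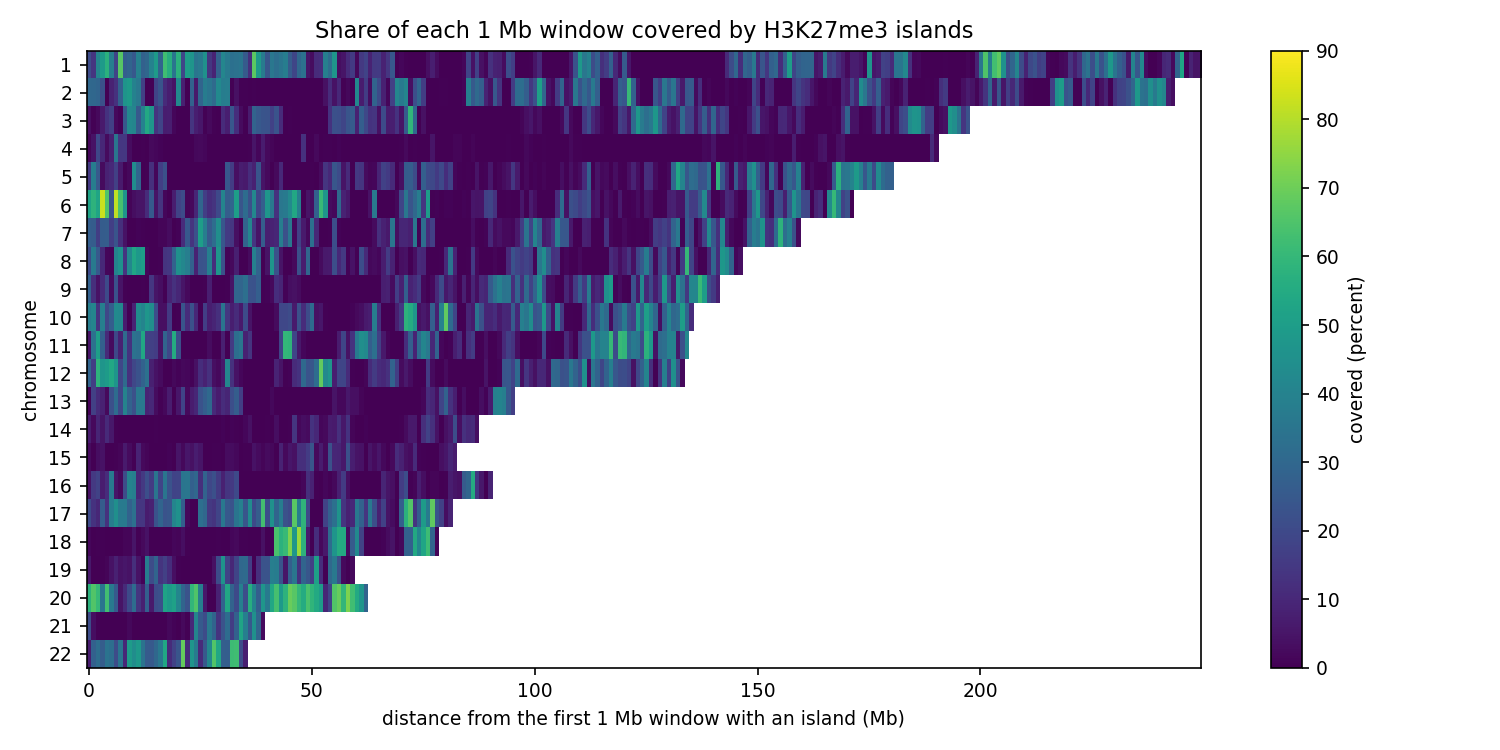
Percent of each 1 Mb window covered by LY19Y646F islands (colour), by chromosome and by distance in Mb from the first window with an island; white lies beyond the last window. Bright blocks are seen at the start of chromosome 6, in the second part of chromosome 18 and along chromosome 20, and chromosomes 4, 14 and 15 are dark.

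The far ends of the chromosomes were better covered than the parts between. Coverage of the last 5 Mb before the final island was higher than that of the part between both ends on 22 of 22 chromosomes, with medians of 31.8% and 12.6% over chromosomes. It was 53.6% against 37.2% on chromosome 20, 48.2% against 12.3% on chromosome 18, 37.1% against 11.1% on chromosome 9 and 32.1% against 7.13% on chromosome 13. The smallest difference was that of chromosome 15, 5.16% against 4.36%. On chromosome 4 it was 2.56% against 0.997%, from 5 islands that follow a gap of 19.4 Mb. Those 5 islands had a median relative input density of 2.67 and a median fold of 1.15. The part between holds long gaps, such as those at centromeres given below, which lower its coverage. The end windows are set from an island by definition. Input density over the islands of the last 5 Mb was below the list median on 17 chromosomes, with a median ratio of 0.898. With the last 2 Mb in place of the last 5 Mb, the ends were higher on 16 chromosomes. At the other end, the first 5 Mb were higher than the middle on 13 of the 17 chromosomes other than 13, 14, 15, 21 and 22, whose short arms are largely missing from the assembly, with medians of 18.9% and 12.9%. Chromosome 6 had 62.5% there, and chromosomes 18 and 19 had 0.492% and 1.5%.

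Long stretches held no island at all. There were 310 gaps of over 1 Mb, which summed to 1028.9 Mb, and 48 of over 5 Mb. The longest ran on chromosome 4 from 111198401 to 139794200, 28.6 Mb, and chromosome 4 had 4 of the 15 longest, among them the 19.4 Mb from 171056001 to 190470000. Chromosome 3 had no island for 21.9 Mb from 75609201 to 97555600, and chromosome 13 none for 13.3 Mb from 60894801 to 74188400. The gaps on chromosome 1 from 121473601 to 143173400, on chromosome 9 from 47216601 to 66494600 and on chromosome 16 from 34342201 to 48134200 measured 21.7, 19.3 and 13.8 Mb. These 3 and the gap on chromosome 3 include the centromere, and how much sequence there can take up reads was not analysed here. A gap shows only that no island passed the authors' limit.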

How the data were processed

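Islands of LY19Y646F had been called by the authors on the merged reads of 3 ChIP libraries against 1 input library, at an FDR of 0.001, per the labels. Bowtie2 2.2.9, SAMtools 1.3.1, SICER, bedtools and build hg19 are named in the submitters' processing notes, without versions for SICER and bedtools. Cells were fixed with 1% formaldehyde and sonicated to about 200 bp, per the labels' protocols.

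Per the file headers, read counts of ChIP and of input are listed per island. Whether duplicate reads had been removed before counting was not analysed here. The deposited counts are raw in that they were not scaled between libraries. As a ratio, the deposited fold compares them after scaling by 1 constant, recovered from the values as 2.62. The p-value deposited for each island was not used, and the FDR served only as a limit. Total depth per library is unknown here, and read counts limit the precision of single islands (95% exact intervals, Poisson for counts and Clopper-Pearson for folds).

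Widths, densities per kb, coverage in windows of 1 Mb and joined stretches (gaps up to 5 kb) were computed with Python 3.11.15, numpy 2.4.6, pandas 2.3.3, scipy 1.17.1 and matplotlib 3.10.9, after the steps had been tested on simulated data. Named loci are the 10 widest islands, the 10 with most ChIP reads per kb, the 10 of highest fold (at least 2 kb wide, input at most 3 times the median), the 10 most covered windows and, chosen after values were seen, the sets marked so, the joined stretches, segments and gaps. Islands and rules were chosen with earlier results of these data known. No test was run, since the list has no replicates. Gene lists, cell type markers and promoter composition, which had been planned, were not analysed here, because the gene table is on another build and positions were not converted. Alternatives are given in the closing section.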

Additional observations from a re-analysis of the deposited data

Results flagged for a closer look

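Outside the islands described above, the LY19Y646F list held 57 islands that are not on chromosomes 1 to 22. They covered 0.43 Mb and held 77360 ChIP reads. No comparison of the report uses them, and they enter only the alternative that takes all chromosomes of the list. Their number is given as a value, with no comparison.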

How the results depend on the processing

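Covered length and, apart from joining, the number of islands stayed within 1.5 times their reported values under every alternative run. Joining keeps the covered length by construction. Leaving out the 49 islands of high input or adding the 57 on other chromosomes could hardly move either value. Only the FDR limits could: 45181 islands covered 372.6 Mb at 1e-05, and 37348 covered 334.1 Mb at 1e-10. Joining across gaps of up to 5 kb gave 23657 islands in place of 47375, by construction, with a median width of 8.6 kb. Median densities were 38.5 ChIP and 7.82 input reads per kb of stretch, and the median fold was 1.86. The length of the gaps was included in these densities but reads in the gaps were not counted, which lowers both by construction. At an FDR of at most 1e-05 the median width was 6.0 kb, ChIP density 41.9, input density 8.33 and fold 1.93, and at 1e-10 they were 6.6 kb, 42.4, 8.0 and 2.02. Islands with input within 15% of the median, added after seeing the data, were 6.2 kb wide at the median, with a ChIP density of 41.6. These medians lay outside narrow 95% intervals that take the islands as independent draws. Because the islands lay in groups and come from 1 merged list, those intervals measure no spread between replicates, and the shifts were not tested. Counted as islands per Mb, chromosome 20 stood at 1.85 times the median chromosome, against 2.97 times by coverage, since its islands are wide. In windows of 500 kb, 5.80% were covered to at least 50%, against 3.7% in windows of 1 Mb. The higher coverage of chromosome ends was seen on 16 chromosomes for the last 2 Mb, on 20 for the last 10 Mb and on 22 without the islands of high input or at an FDR of 1e-10, all added after seeing the data. No paired analysis was possible because the replicates were merged before islands were called, and no replicate could be left out. The planned gene alternatives were not run. Without reads, depth could not be varied, and weaker islands below the limit were not seen.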
